A study of Spodoptera frugiperda with 8 samples.

Results

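Two-colour arrays of the fall armyworm Spodoptera frugiperda carried 13808 probes apart from controls. Described here are 2 of those annotated as hemolymph proteins, CUST_7605_PI426916786 and CUST_11088_PI426916786 (below CUST_7605 and CUST_11088). Further probes named for hemolymph are given below for comparison. Both were selected on their array ratios of resistant larvae over susceptible larvae, by which the study's tables list them among over expressed annotated ESTs, so these ratios are given as a description in both comparisons, without a test. The name carried on the array was 27 for CUST_7605, whose description in the study's tables begins with kda hemolymph protein, and p27k_galme for CUST_11088, the database name of the hemolymph protein of the wax moth Galleria mellonella. Both ESTs came from Sf1F, a cDNA library made from fat body. One more probe, CUST_11087, carried the name p27k_galme as well, for another EST of the same library, and is used as the nearest comparator.

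Each array compared RNA of a resistant strain with RNA of SUS, a susceptible laboratory strain reared without insecticide, and 4 arrays were made for each of the 2 comparisons. The OP strain had been selected with the organophosphate chlorpyrifos and the PYR strain with the pyrethroid lambda-cyhalothrin. The topical doses rose from 100 to 400 µg per g of larva for OP and from 8.4 to 27 µg per g for PYR. All larvae were reared on artificial diet, and every RNA sample was a pool of 5 whole larvae of the second instar. OP and PYR came from corn fields in different parts of Brazil and SUS was an older laboratory colony, so that the origin of a strain and its selection cannot be told apart. The resistant strain carried Cy3 on replicates 1 and 3 and Cy5 on replicates 2 and 4 of both comparisons, and dye and pool number therefore cannot be told apart either. By their labels, SUS pools numbered 1 to 4 served both comparisons, which therefore share their controls.

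Insect hemolymph is the open circulating fluid that bathes every tissue. Most of its proteins are made by the fat body, the insect counterpart of liver and adipose tissue, and are secreted into the fluid, where they store amino acids (arylphorins, hexamerins), carry lipids (lipophorin and its exchangeable partner apolipophorin-III), bind iron (transferrin, ferritin) or take part in defence (cecropins, serpins). The 27 kDa protein is known by the fluid it was found in, and no role is assigned to it here. The arrays measured transcripts of whole larvae and not the protein in the fluid, and a smaller share of fat body cells cannot be told apart from less transcript in each of them.

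One slide held all 8 arrays, scanned at once, and the OP and PYR comparisons occupied separate rows of it. Between 327 and 686 spots on the OP arrays and between 537 and 903 on the PYR arrays were marked as outliers and left out. The OP channel was well above background for 6989 to 11060 of 15208 spots, the PYR channel for 5406 to 9333 and the SUS channel for 5763 to 7401 on the OP arrays and 5155 to 8107 on the PYR arrays. Replicate 1 of PYR over SUS had the fewest such spots in both channels, 5406 and 5155. Each hemolymph protein probe had 1 spot on an array, and neither member was marked or saturated on any array.

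CUST_7605 had the higher log2 ratio of resistant strain over SUS of the members on 7 of the 8 arrays. In OP over SUS its log2 ratios were 4.78, 6.77, 8.16 and 8.20 in replicates 1 to 4. The lowest value was therefore in replicate 1 and all 4 arrays were higher in OP. Replicate 1 was an unbalanced array, with a median background-subtracted signal over all spots of 143 in OP and 5.66 in SUS. Before dye correction CUST_7605 read 1367 in OP on that array, above the 641 of replicate 3. Whether its low ratio belongs to the pool or to the array was not tested. The mean was 6.98 ± 1.61 (SD, n = 4) on the log2 scale, which is a 126-fold difference. The processed signal in OP was 1014, 16376, 8153 and 44876, against 36.8, 151, 28.5 and 153 in SUS. OP was well above background on all 4 arrays, while SUS was so on replicate 4 alone, so that most of the denominators were background readings. With the SUS signal held at no less than the lowest signal read well above background on the same array, the mean log2 ratio was 6.38 ± 1.72 (SD, n = 4), which is 83.0-fold.

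The log2 ratios of CUST_7605 in PYR over SUS were 0.85, 6.03, 6.50 and 7.71 in replicates 1 to 4. Replicate 1 thus stood below the other 3, and the mean of 5.27 ± 3.03 (SD, n = 4), or 38.7-fold, rests on values that are not alike. On replicate 1 neither channel was well above background, with processed signals of 39.8 in PYR and 22.0 in SUS. Without that array the mean log2 ratio was 6.75 ± 0.87 (SD, n = 3), and with SUS held at the array's detection floor it was 6.02 ± 1.70 (SD, n = 3), or 64.8-fold. The processed signals of the other 3 PYR channels were 17010, 1340 and 30440 in replicates 2, 3 and 4, against 261, 14.8 and 145 in SUS. SUS was well above background on replicates 2 and 4, which are the arrays where SUS carried Cy3 and PYR carried Cy5.

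CUST_11088 was well above background in all 16 channels. Its SUS signals were low all the same. After background subtraction they were between 23.8 and 28.2 on the OP arrays and between 15.2 and 24.7 on the PYR arrays. The size of its ratios therefore also depended on the background correction, as given below. In OP over SUS its log2 ratios were 3.42, 2.80, 4.85 and 4.83 in replicates 1 to 4, with a mean of 3.97 ± 1.03 (SD, n = 4), which is 15.7-fold. Replicates 3 and 4 were the higher pair, 1 in each dye orientation. The processed signals were 5900, 4617, 8659 and 10421 in OP against 551, 664, 301 and 367 in SUS. Its log2 ratios in PYR over SUS were 2.27, 3.36, 2.99 and 4.49, with a mean of 3.27 ± 0.93 (SD, n = 4), which is 9.68-fold. The lowest ratio was again on replicate 1, where CUST_7605 was not above background. The processed signals were 966, 5886, 1936 and 8640 in PYR against 201, 575, 244 and 385 in SUS.

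**Figure D1:**
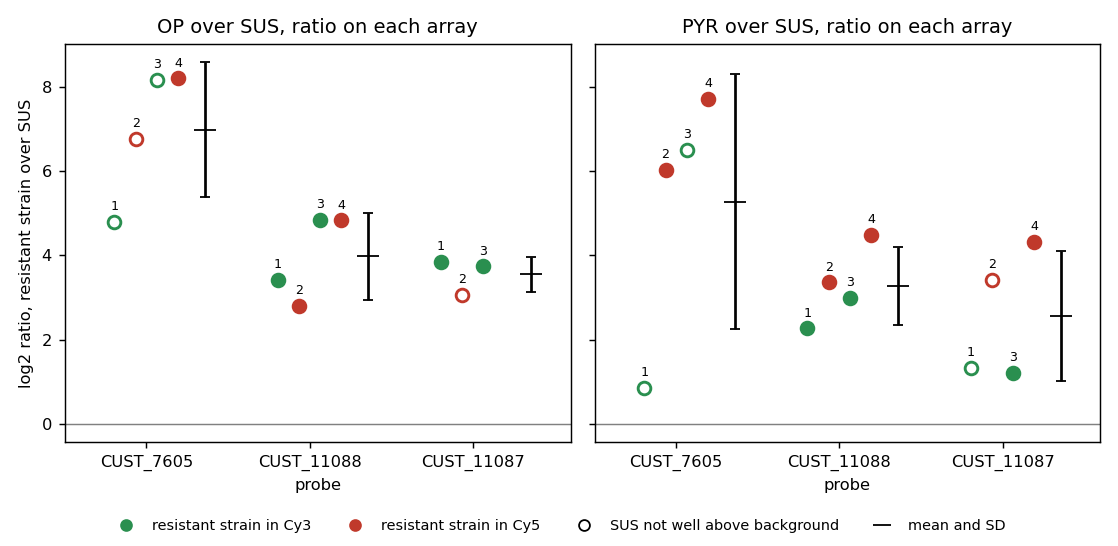
Log2 ratio of the resistant strain over SUS (y axis) for CUST_7605, CUST_11088 and CUST_11087 (x axis) on each array, with OP over SUS on the left and PYR over SUS on the right. Points are arrays numbered by replicate and coloured by the dye of the resistant strain, open points are arrays where SUS was not well above background, and bars are the mean and SD. All ratios lie above 0, and CUST_7605 on replicate 1 of PYR over SUS, at 0.85, lies far below its other 3 arrays.

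The size of these ratios depended on how background and dye were treated. The processed signals had been corrected for background and dye by the scanner software. With the normexp background correction and loess applied to the median signals, the mean log2 ratio of CUST_7605 was 3.84 in OP and 2.78 in PYR, and that of CUST_11088 was 2.64 in OP and 1.78 in PYR. All 4 means stayed above 0 under every alternative tried, but each was much lower with this correction, which used an offset of 50. From the processed signals the means were 6.98 in OP and 5.27 in PYR for CUST_7605, and 3.97 and 3.27 for CUST_11088. The fold differences given above therefore hold for the scanner software's correction alone. Before dye correction, the background-subtracted signal of CUST_7605 was between 641 and 7979 in OP and between -0.73 and 15.5 in SUS on the same arrays. For CUST_11088 it was between 467 and 8310 in OP and between 23.8 and 28.2 in SUS. On the PYR arrays it was between 71.6 and 1904 in PYR and between 15.2 and 24.7 in SUS for CUST_11088. For CUST_7605 on the PYR arrays the ranges did overlap, from 4.35 to 7214 in PYR and from -2.14 to 12.6 in SUS, the lowest PYR value being that of replicate 1.

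The background for any count of calls was taken from the fit over all probes, in which a probe was called at a limma adjusted p under 0.01 and a difference of more than 2-fold. In OP over SUS 6959 probes were tested and 2.93% were called, 1.8% as higher and 1.14% as lower. Both members were among the 125 called as higher, and CUST_7605 had the highest log2 ratio of all probes tested while CUST_11088 ranked 54. In PYR over SUS 6065 probes were tested and 2.06% were called, 0.791% as higher and 1.27% as lower. Neither member was among the 48 called as higher, although they ranked 5 and 81 by ratio. Since the members were chosen for these contrasts, nothing is read from these calls. With the replicate number as a block, 347 probes were called in PYR over SUS in place of 125.

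The normalized log2 signal of each channel gave the order of the levels over strains for each probe. For CUST_7605 it was 9.60, 13.84, 13.01 and 15.28 in OP pools 1 to 4, with a mean of 12.93 ± 2.41 (SD, n = 4). In PYR it was 5.20, 13.75, 10.65 and 14.49, with a mean of 11.02 ± 4.22 (SD, n = 4). The ranges of OP and PYR overlapped. Between pools of equal number, which were read in the same dye, OP was higher than PYR in 4 of 4, by 4.40, 0.08, 2.36 and 0.79 for pools 1 to 4, the first of these against the PYR channel that was not above background. This difference was not tested. In SUS the mean was 5.96 ± 1.29 (SD, n = 4) on the OP arrays and 5.75 ± 1.77 (SD, n = 4) on the PYR arrays. PYR pool 1, at 5.20, lay inside the SUS range of 4.15 to 7.73, and the other 7 resistant channels lay above it. The SUS signal of CUST_7605 fell into separate ranges by dye, from 6.77 to 7.73 where SUS carried Cy3 and from 4.15 to 4.85 where it carried Cy5.

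CUST_11088 varied less among pools of a strain. Its normalized log2 signal was 12.11, 11.996, 13.09 and 13.15 in OP pools 1 to 4, with a mean of 12.59 ± 0.62 (SD, n = 4). In PYR it was 10.90, 12.22, 11.29 and 12.68, with a mean of 11.77 ± 0.82 (SD, n = 4), and the ranges of OP and PYR overlapped. Between pools of equal number OP was higher in 3 of 4, with differences of 1.20, -0.23, 1.80 and 0.47. In SUS it was 8.61 ± 0.44 on the OP arrays and 8.50 ± 0.31 on the PYR arrays (SD, n = 4 each). The highest SUS channel, at 9.20, lay below the lowest resistant channel, at 10.90. CUST_11088 was chosen for this contrast, and the share of all probes that separate likewise was not counted, so nothing is read from it. Unlike CUST_7605, its SUS signal had overlapping ranges in both dyes, 8.19 to 9.20 in Cy3 and 8.25 to 8.69 in Cy5.

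**Figure D2:**
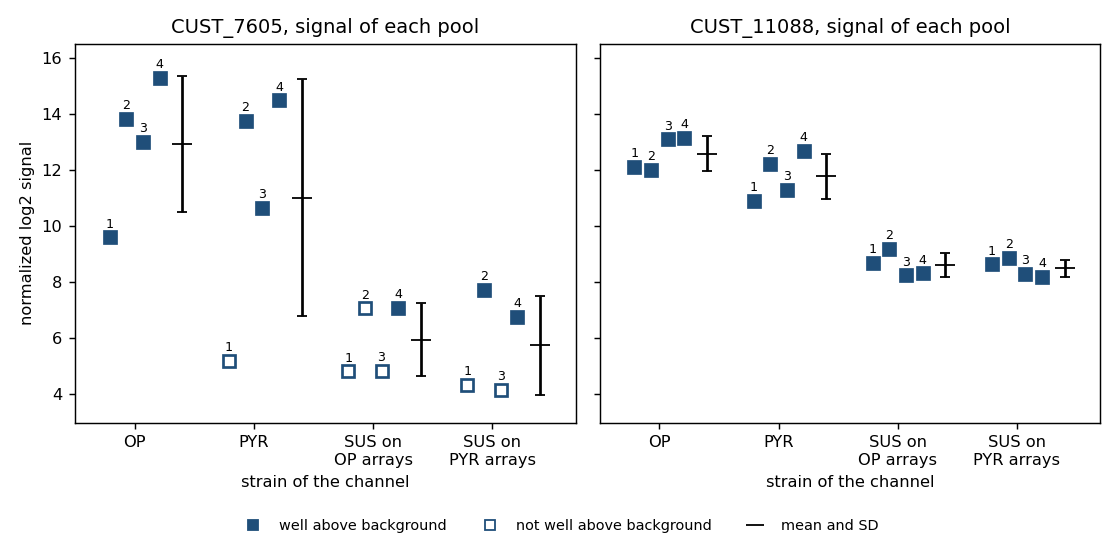
Normalized log2 signal (y axis) of CUST_7605 (left) and CUST_11088 (right) in every channel, by strain and set of arrays (x axis), numbered by pool, with filled squares well above background and bars for the mean and SD. For CUST_11088 the resistant channels start at 10.90 and the SUS channels end at 9.20, whereas PYR pool 1 of CUST_7605, at 5.20, lies among the SUS channels.

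Taken by their labels as the same RNA, the SUS pools of equal number gave a measure of repeatability, since each number was read once in each comparison. For CUST_11088 the SUS signal on the OP array minus that on the PYR array was 0.05, 0.33, -0.06 and 0.13 on the log2 scale for pools 1 to 4. For CUST_7605, near background, the same differences were 0.47, -0.66, 0.70 and 0.31. For CUST_11087 they were 2.33, 0.75 and 0.43 for pools 1 to 3, pool 1 being not well above background on the PYR array. The repeats were read in the same dye. If equal numbers mark the same RNA, which only the labels give, they show the spread between readings, not that between separate pools.

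Ratios of both members were set against dye orientation. In PYR over SUS the mean log2 ratio with PYR in Cy5 exceeded that with PYR in Cy3 by 3.20 for CUST_7605 and by 1.30 for CUST_11088. Without replicate 1, where CUST_7605 was not above background, the differences were 0.37 and 0.94, each against 1 array with PYR in Cy3. In OP over SUS the same difference was 1.01 for CUST_7605 and -0.32 for CUST_11088. With at most 2 arrays in each orientation these values were not tested, and whether they belong to the dyes or to the pools cannot be told apart.

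CUST_11087, the other p27k_galme probe, is given for comparison. Its log2 ratios in OP over SUS were 3.84, 3.06 and 3.74 in replicates 1 to 3, the spot of replicate 4 having been marked, with a mean of 3.55 ± 0.42 (SD, n = 3). It was called in OP over SUS (limma adjusted p = 0.00810), but it too is in the study's tables and its call is no independent evidence. The PYR over SUS log2 ratios were 1.32, 3.41, 1.22 and 4.32, with a mean of 2.57 ± 1.54 (SD, n = 4), which did not pass (limma adjusted p = 0.0470). The higher pair of its PYR ratios was on replicates 2 and 4, as for CUST_11088, whereas that of CUST_7605 was on replicates 3 and 4. On replicate 1 of PYR over SUS neither channel of CUST_11087 was well above background, with processed signals of 66.0 in PYR and 26.3 in SUS, and no direction is read from that array. In each comparison, 2 of the arrays used had its SUS signal well above background. Whether the probes read copies of 1 gene or different genes was not tested, as probe sequences were not analysed here, and transcripts alike in sequence could be read by more than 1 of them.

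Over the 16 channels the normalized log2 signals of CUST_7605 and CUST_11088 had a Pearson correlation of 0.887. Among 4388 probes well above background in at least 10 channels and with no marked spot, CUST_11088 ranked 10 in likeness to CUST_7605, and CUST_7605 ranked 22 in likeness to CUST_11088. Over the 8 log2 ratios the correlation was 0.784 and the ranks were 72 and 58. CUST_11087 had a correlation of 0.835 with CUST_7605 and 0.872 with CUST_11088 over the 14 channels where it was measured. The channels share arrays and the difference between resistant strains and SUS, and the correlations are given as a description.

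The 5 probes most alike to CUST_7605 by this measure were CUST_1179 (r = 0.949), CUST_531 (0.944), CUST_7955 (0.935), CUST_3578 (0.918) and CUST_5421 (0.913), against a median of -0.03 over the probes ranked. CUST_1179 and CUST_531 were unannotated contigs of the fat body library, CUST_3578 came from the library of pooled tissues and CUST_5421 from xenobiotic induced midgut. CUST_7955 carried a name shortened on the array to jh-indu after a sequence identifier. CUST_1179 had a mean log2 ratio of 3.29 ± 1.21 (SD, n = 4) in OP and 2.23 ± 2.63 (SD, n = 4) in PYR. Like CUST_7605, it had a low signal in PYR pool 1.

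The 5 probes most alike to CUST_11088 were CUST_3068 (r = 0.947), CUST_5421 (0.945), CUST_532 (0.940), CUST_335_PI426916783 (0.935) and CUST_227_PI426916783 (0.934). CUST_532 was a second contig of the fat body EST to which CUST_531 belonged, and CUST_3068 came from pooled tissues. The last pair were named glutathione on the array, where names hold only the first word of a description. In the study's tables both are glutathione S-transferases, listed as over expressed in OP and in PYR. CUST_227_PI426916783 had a mean log2 ratio of 3.77 ± 1.08 (SD, n = 4) in OP and 3.66 ± 0.30 (SD, n = 4) in PYR. CUST_5421, which appeared for both members, had 3.48 ± 0.80 in OP and 2.86 ± 0.42 in PYR (SD, n = 4 each) and was called as higher in both. When likeness was measured over the 8 ratios, none of the 5 remained in the first 5 of either member.

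**Figure D3:**
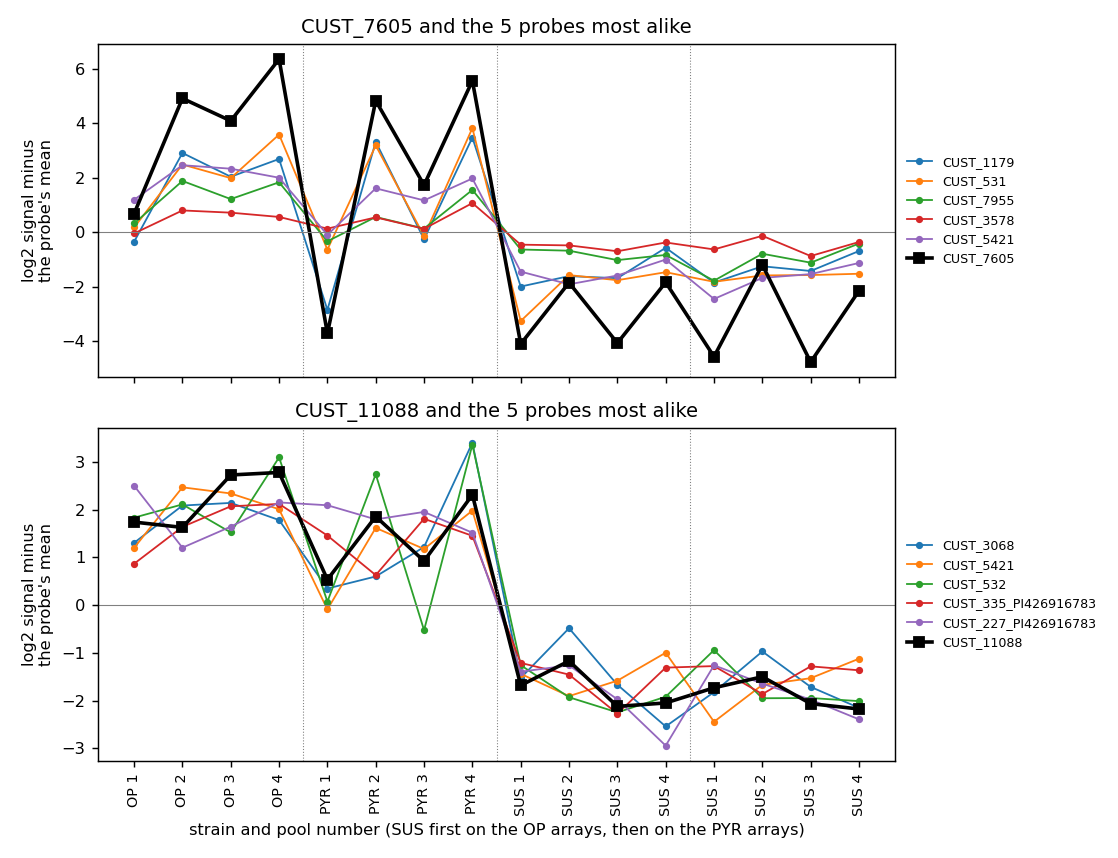
Normalized log2 signal minus the mean of the probe (y axis) in the 16 channels (x axis, strain and pool number) for CUST_7605 (top, black squares) and CUST_11088 (bottom, black squares) with the 5 most alike probes of each as coloured lines. The signal of both members was above its mean in OP and below it in all SUS channels, and CUST_7605 fell below its mean in PYR pool 1, where CUST_11088 did not.

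Other probes named for hemolymph or for its storage and transport proteins had mean log2 ratios from -1.21 to 3.55 in OP where tested. In PYR they ranged from -0.94 to 2.57, and CUST_11087 was the highest of them in both comparisons. Humoral immune proteins such as cecropins are not among them and are given below. A list of 68 probes was drawn up by array name, 6 named for hemolymph (CUST_11087 among them) and 62 for storage and transport proteins. Of the 62, 42 were above background in no channel, so few could be tested. In OP over SUS 10 of the 68 were tested, 1 was called as higher (CUST_11087) and none as lower, with 4 higher and 0 lower at an unadjusted limma p under 0.05. Over all probes tested in OP, 16.6% were higher and 10.1% lower at that unadjusted threshold. The median log2 ratio of the list was 1.04, beside 0.10 for all probes tested. In PYR over SUS 12 were tested and none was called, with 1 higher and 1 lower at an unadjusted limma p under 0.05 and a median of -0.12 beside 0.08. Over all probes tested in PYR, 16.4% were higher and 15.8% lower at that unadjusted threshold, and the unadjusted counts of the other lists stand beside the same shares. Of the 5 probes named hemolymph, 1 could be tested, CUST_9977, at -0.45 ± 1.08 (SD, n = 3) in OP and -0.87 ± 0.49 (SD, n = 4) in PYR. CUST_9975, too dim to be tested, had -2.20 ± 0.56 (SD, n = 3) in OP and -1.78 ± 1.06 (SD, n = 4) in PYR. It was higher in the resistant strain on no array, with SUS well above background on 2 arrays of each comparison. CUST_9976, CUST_9978 and CUST_9979 were nearly all at background, with means from -0.19 to 0.32 in OP and from -0.62 to 0.04 in PYR.

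Apolipophorin-III, the exchangeable lipid carrier of the hemolymph, had ratios that differed between arrays. Its probes, and those of arylphorin and ferritin, were singled out after their values were seen. CUST_8180 was well above background in every channel and had log2 ratios of 1.40, 3.20, 1.21 and 2.22 in OP over SUS, a mean of 2.01 ± 0.91 (SD, n = 4), which did not pass (limma adjusted p = 0.0333). The PYR over SUS log2 ratios were -3.72, 3.28, -1.67 and 2.47, with a mean of 0.09 ± 3.34 (SD, n = 4). It was thus lower in PYR on replicates 1 and 3 and higher on replicates 2 and 4, and CUST_8181 and CUST_8182 had the same signs on each of these arrays. The PYR signal of CUST_8180 ranged from 12.04 to 17.01 on the normalized log2 scale while its SUS signal on the same arrays ranged from 13.71 to 15.82. The arrays with the low values are those with PYR in Cy3, and the lowest, replicate 1, is also the array with the lowest ratios of both members. Over the 8 ratios CUST_8180 had a Pearson correlation of 0.707 with CUST_7605 and 0.504 with CUST_11088.

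Arylphorin, a storage protein, had 2 probes tested in both comparisons, with mean ratios below 0. CUST_8232, above background in every channel, had a mean log2 ratio of -0.99 ± 1.53 (SD, n = 4) in OP and -0.43 ± 0.74 (SD, n = 4) in PYR, and CUST_8236 had -1.21 ± 2.24 and -0.92 ± 0.78 (SD, n = 4 each). Neither passed in either comparison. Their spreads take in 0 in OP, and that of CUST_8232 does so in PYR as well. Of the arylphorin probes tested in PYR over SUS alone, CUST_8229 had -0.29 ± 0.90 and CUST_8250 had 0.51 ± 1.501 (SD, n = 4 each), and neither passed. The ferritin probes, of an iron store that insects also secrete, had means of 0.89 ± 0.29 (CUST_9657) and 1.18 ± 0.43 (CUST_9658) in OP (SD, n = 3 each). In PYR they had -0.15 ± 0.47 and 0.73 ± 0.70 (SD, n = 4 each), and neither passed in either comparison.

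**Figure D4:**
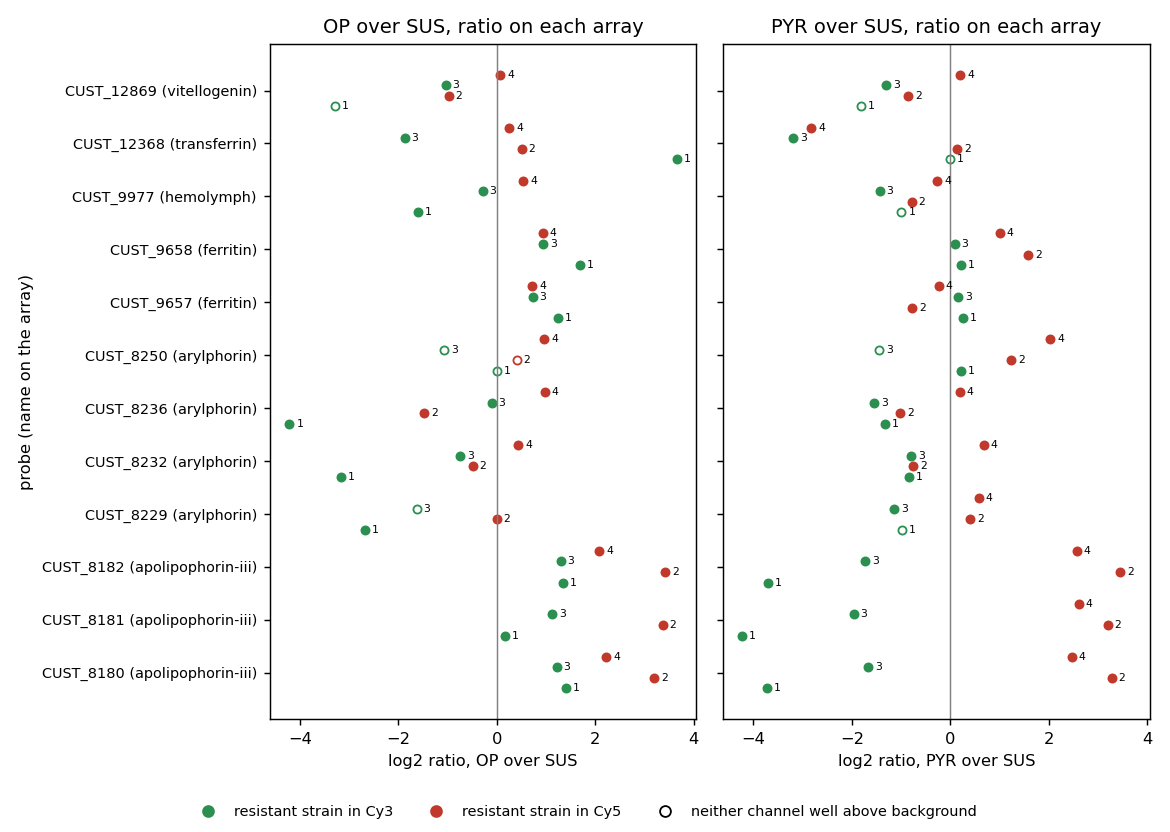
Log2 ratio of the resistant strain over SUS (x axis) on each array for the probes of the hemolymph protein list tested in either comparison, apart from CUST_11087 (y axis, with the name on the array), for OP (left) and PYR (right), numbered by replicate and coloured by the dye of the resistant strain. The apolipophorin-III probes lie above 0 on every OP array shown but split in PYR over SUS, from -3.72 to 3.28 for CUST_8180, by replicate and dye.

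The library from which the members' ESTs came was described in the same way. Of 989 unannotated probes of the fat body library, 677 were tested in OP over SUS, of which 24 (3.55%) were called as higher and 8 (1.18%) as lower, with a median log2 ratio of 0.43. In PYR over SUS 574 were tested, of which 5 (0.871%) were called as higher and 5 (0.871%) as lower, with a median of 0.26. The share called as higher in OP was above the 1.8% of all probes and that in PYR near the 0.791% of all probes. The difference from other libraries was not tested. The medians over the other 7 libraries lay between -0.02 and 0.17 in OP and between -0.23 and 0.67 in PYR.

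Probes named for other tissues and for defence moved with the strains in part, and their part in the members' ratios was not tested. Of 26 cuticle probes, 17 were tested in OP over SUS and 3 were called as lower, CUST_8995, CUST_8992 and CUST_8984, with log2 ratios of -5.12 ± 1.64, -3.71 ± 1.12 and -3.20 ± 0.90 (SD, n = 4 each). PYR over SUS had 16 tested and 1 was called as lower, CUST_8984 at -3.95 ± 0.52 (SD, n = 3). Their medians were -1.94 and -2.39. The summed processed signal of 21 cuticle probes ranged from 46102 to 537219 in OP and from 80080 to 460108 in PYR. In SUS on the same arrays it ranged from 692206 to 953152 and from 683029 to 924726. The resistant strains did not overlap with SUS, but how often sums over other probes separate likewise was not counted. The summed signal of 45 storage and transport probes ranged from 57206 to 209672 in OP and from 8699 to 228588 in PYR, and from 22792 to 72116 and from 24002 to 119747 in SUS, and overlapped.

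Of 49 humoral immune probes, 24 were tested in OP over SUS and 2 were called as higher. At an unadjusted limma p under 0.05, 5 were higher and 1 lower. The called probes were the cecropins CUST_8632 at 4.12 ± 1.56 and CUST_8635 at 4.07 ± 1.39 (SD, n = 4 each), antibacterial peptides that the fat body secretes. OP was well above background for both on 4 arrays, but SUS on 1 array for CUST_8632 and on 2 for CUST_8635. Their ratios therefore rest in part on background readings in SUS. In PYR over SUS 22 of the 49 were tested and none was called. At an unadjusted limma p under 0.05, 5 were higher and 2 lower. The same cecropins had means near those in OP with a wider spread, 4.13 ± 2.78 for CUST_8632 and 4.02 ± 2.99 for CUST_8635 (SD, n = 4 each). Both were higher in PYR on all 4 arrays, with SUS well above background on 1 array each. Of 169 probes for midgut enzymes and peritrophins, 115 were tested in OP and 100 in PYR, and none was called by limma. At an unadjusted limma p under 0.05, 13 were higher and 3 lower in OP, and 0 higher and 18 lower in PYR. Of 15 muscle probes, 12 were tested in OP and none was called by limma, with 1 higher and 2 lower at an unadjusted p under 0.05. In PYR 11 were tested and 1 was called as lower, the troponin probe CUST_12482 at -2.98 ± 0.49 (SD, n = 4).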

How the data were processed

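RNA pools of OP, PYR and SUS larvae were labelled with Cy3 or Cy5 and hybridised in pairs to 8 arrays. The authors read intensity with Agilent Feature Extraction (version 10.7.1.1 per the file headers, 10.5 per the labels), which subtracted background and corrected dye bias, and deposited a log10 ratio of Cy5 over Cy3 for each spot. The deposited series table was identical to that log10 ratio (largest difference 0). The RNA kit and amount differ between the labels and the study's methods.

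The log10 ratios were multiplied to the log2 scale and turned to resistant strain over SUS. Control spots and marked outlier spots were left out, and spots of a probe were averaged. Channel levels were the log2 of the deposited processed intensity after Aquantile scaling between arrays. Ratios were tested against 0 with limma 3.58.1 (lmFit and eBayes, with statmod 1.5.0 for the block) in R 4.3.3, two-sided, with Benjamini-Hochberg adjustment over all probes tested. To be tested, a probe needed at least 3 values, with either strain well above background on at least 3 arrays. It was called at an adjusted p under 0.01 and more than 2-fold. The script was tested on simulated data. The number of arrays limits the precision. The p-values rest on the spread between arrays, in which both pools of 5 larvae, the dye orientation and the array are mixed. Depth has no counterpart on an array.

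The named probes were both members, CUST_11087, probes with the same EST identifiers (none) or with hemolymph or p27k in the array name, the 5 probes most alike to each member, and up to 3 called probes of each list with one sign on every array. The lists were matched to the first word of a description, which is all the array names hold, so juvenile hormone binding protein could not be matched. Members and lists were chosen with earlier results of these data known. Of the array, 12528 probes had 1 spot.

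Same-numbered arrays of the comparisons deviated together, with correlations of 0.300 to 0.571 over 4755 probes, against -0.519 to 0.235 for arrays of different number. Each probe had been centred within a comparison, which ties these correlations to each other. Same-numbered arrays also share the dye orientation, so the correlations cannot show that the SUS pools were the same. The SUS labels give the numbers, and they were taken to pair the arrays. The replicate block was fitted over all 8 arrays with a correlation of 0.466. Alternatives were the marked spots kept, no filter on dim probes, normexp (offset 50) with loess, centring on the median, the methods' t-test, an adjusted p of 0.05, a dye term, the replicate block, leaving out each replicate and other measures of likeness.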

Additional observations from a re-analysis of the deposited data

Results flagged for a closer look

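In 80 groups of 4 channels or arrays behind the values above, the gap of the highest or lowest value to the nearest was compared with the range of its group, and 4 stood apart by Dixon's criterion of 0.829, which chance exceeds in about 1 of 20 groups. CUST_531, alike to CUST_7605, had its lowest SUS signal on the OP arrays at 10.2 on the normalized log2 scale, apart from the other 3 pools. CUST_532, alike to CUST_11088, had 1 high SUS signal on the PYR arrays, at 12.9. CUST_335_PI426916783 had 1 low SUS signal on the PYR arrays, at 6.65. The arylphorin probe CUST_8232 had 1 high log2 ratio in PYR over SUS, at 0.68, with the other 3 arrays below 0. No value of either member was among them.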

How the results depend on the processing

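The members' mean log2 ratios kept their direction under every alternative. Apart from normexp with loess (CUST_7605 in OP 3.84, CUST_11088 in OP 2.64 and in PYR 1.78), they moved by less than 1 SD, and leaving out 1 replicate gave 6.57 to 7.71 for CUST_7605 in OP, 4.46 to 6.75 in PYR, 3.68 to 4.37 for CUST_11088 in OP and 2.87 to 3.61 in PYR. Holding SUS at the detection floor was chosen after seeing the data.

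The counts of probes called changed more, and the cause was not tested. In OP over SUS limma called 204, but 0 with no filter on dim probes (2203 at an unadjusted p under 0.05), 0 with normexp and loess (1492) and 0 with the methods' t-test after Benjamini-Hochberg (1486). It called 802 at an adjusted p of 0.05, 78 with a dye term and 304 with the replicate block. Leaving out 1 replicate gave 6 to 194, with 129 without replicate 1, 6 without replicate 2 and 29 without replicate 4. In PYR over SUS limma called 125, but 0 with no filter (2326 at an unadjusted p under 0.05), 0 with normexp and loess (1531) and 0 with the t-test (1489). It called 722 at an adjusted p of 0.05, 563 with a dye term and 347 with the replicate block. Leaving out 1 replicate gave 0 to 118, with 0 without replicate 1, 3 or 4 (1264, 1027 and 1361 at an unadjusted p under 0.05).

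Of the hemolymph protein list, the 1 probe called in OP became 0 with no filter, with normexp, with centring, with the t-test, with a dye term and on leaving out any replicate (0 to 0), and 3 at an adjusted p of 0.05, with 2 to 6 at an unadjusted p under 0.05. The 0 called in PYR became 1 at an adjusted p of 0.05 and 1 with a dye term, and was 0 to 0 on leaving out any replicate (0 or 1 at an unadjusted p under 0.05). The replicate block changed no call of the list. Of the 5 most alike probes, 2 were shared for each member with Spearman correlation, 0 with the 8 ratios, and 2 (CUST_7605) and 4 (CUST_11088) without scaling between arrays. Signal near background limits CUST_7605 in SUS, which was well above background in 3 of 8 channels.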
